A study of Arabidopsis thaliana with 12 samples.

Results

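Of 20114 Arabidopsis thaliana genes with values in every group, 300 (1.49%) were lower than in WT in both trb45 lines and higher than in WT in the trb123 triple mutant. They were chosen by these values: the group mean of log2(FPKM + 1) had to lie at least 0.3 below WT in trb45 line 1 and in trb45 line 2 and at least 0.3 above WT in trb123. FPKM divides the fragments of a gene by its length and by the depth of the library, which sets levels of different genes on a scale per length, and the added 1 understates the differences of genes with low values. Because the differences from WT made the choice, they are given below as a description without a test.

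The 12 libraries came in 4 groups of 3: 2 numbered trb45 lines, in which TRB4 and TRB5 are mutated, the trb123 triple mutant of TRB1, TRB2 and TRB3, and WT Col-0. All groups were whole seedlings aged 7 days, untreated, on 1x MS plates with 1% sucrose, in long days (16 h light, 23 °C) after a dark stratification at 4 °C for 2 days, and polyA RNA went into stranded DNBSEQ libraries. The labels give neither the alleles nor how the lines were made. In such bulk samples, fewer cells of a type and less RNA per cell cannot be told apart. Nothing in the labels says that the 3 libraries of a group came from separate cultures, so a p-value measures the spread between libraries, which may be technical.

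TRB proteins carry a Myb domain that binds telomere repeats, and they also bind the telobox, a short telomere-repeat motif found in many plant promoters. Promoters of ribosomal protein genes in plants often hold a telobox together with site II elements, and both motifs are known for driving expression in dividing cells. TRB1, TRB2 and TRB3 are known to recruit Polycomb repressive complex 2, which places a repressive mark on histone H3. Ribosome production, which takes place largely in the nucleolus, needs ribosomal proteins, small nucleolar RNAs (snoRNAs) that guide rRNA modification, and proteins such as fibrillarin and nucleolin.

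The telobox, which the choice had not used, was found in a minority of the 300 genes, but in a larger share of them than of all genes. In a window of 250 bases before to 50 bases after the annotated gene start (RefSeq, TAIR10.1), 62 of the 297 genes that could be placed (20.9%) held AAACCCTA on either strand, against 1104 of all 20020 placed genes (5.51%). Among the 300, 21 protein-coding genes at WT levels of at least 5 FPKM had a telobox in the last 200 bases before the start. The upstream ends of 4 of the 5 with the largest differences are shown. Each reads from 5′ to 3′ toward the gene start on the strand of the gene; capitals mark the telobox AAACCCTA or its reverse complement TAGGGTTT, and site II elements (TGGGCC or TGGGCT, either strand). AT2G35750 (uncharacterized) is at chr2:15030349-15030548, minus strand, AT4G12600 (L7Ae ribosomal protein family) at chr4:7452996-7453195, plus strand, NRP1 (a histone chaperone of the NAP1 family) at chr1:28020060-28020259, minus strand and AT3G59540 (ribosomal protein L38e) at chr3:21996841-21997040, minus strand.
AT2G35750: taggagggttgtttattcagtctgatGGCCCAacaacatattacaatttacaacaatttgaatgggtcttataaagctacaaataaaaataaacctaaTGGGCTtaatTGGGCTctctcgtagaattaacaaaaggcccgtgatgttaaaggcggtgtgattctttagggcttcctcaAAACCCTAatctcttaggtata
AT4G12600: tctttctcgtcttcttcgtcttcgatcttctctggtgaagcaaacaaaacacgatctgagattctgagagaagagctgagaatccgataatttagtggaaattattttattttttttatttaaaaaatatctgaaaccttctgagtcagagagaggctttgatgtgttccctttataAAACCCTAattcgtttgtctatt
NRP1: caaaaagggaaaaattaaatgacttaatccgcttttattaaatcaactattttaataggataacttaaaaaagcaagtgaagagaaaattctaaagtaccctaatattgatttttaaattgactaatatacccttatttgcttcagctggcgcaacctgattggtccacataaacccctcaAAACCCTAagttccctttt
AT3G59540: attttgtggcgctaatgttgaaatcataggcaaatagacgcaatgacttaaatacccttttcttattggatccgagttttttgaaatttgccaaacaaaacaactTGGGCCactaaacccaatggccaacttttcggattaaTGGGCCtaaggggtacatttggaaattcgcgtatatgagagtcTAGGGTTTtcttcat

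In all 4 the telobox lies within the last 50 bases before the gene start. AT2G35750 overlaps AT2G08770 and AT2G35747 on the same strand, so its reads may be shared with them. It had 2.39, 3.12 and 2.78 FPKM in trb45 line 1, 3.65, 2.86 and 4.75 FPKM in trb45 line 2 and 18.5, 15.8 and 19.2 FPKM in trb123, against 7.46, 7.09 and 9.08 FPKM in WT. AT4G12600 had 9.7, 7.2 and 11.5 FPKM in trb45 line 1, 13.6, 8.96 and 14.7 FPKM in trb45 line 2 and 84.5, 76.3 and 77.6 FPKM in trb123, against 20.8, 19.1 and 23 FPKM in WT. NRP1 had 30.6, 24.3 and 22.3 FPKM in trb45 line 1, 25.4, 20.6 and 28.5 FPKM in trb45 line 2 and 93.1, 80.4 and 87.9 FPKM in trb123, against 40.9, 48.4 and 39.2 FPKM in WT. In each of these 3 genes all 6 trb45 libraries lay below all WT libraries and the trb123 libraries lay above them. AT3G59540 averaged 31.2 ± 3.63 FPKM in line 1, 28.2 ± 5.47 FPKM in line 2 and 84.6 ± 4.98 FPKM in trb123, against 51 ± 8.67 FPKM in WT (SD, n = 3 each).

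Teloboxes of the 300 genes were most frequent near the gene start. In the 4 bins of 25 bases from 50 bases before to 50 bases after it, 2.69%, 5.05%, 5.05% and 6.40% of the 297 genes held a telobox, against 0.415%, 0.739%, 0.949% and 1.01% of all genes. Between 200 and 75 bases before the start, each bin held at most 1 of the 297 genes. In the 2 bins farthest upstream, from 250 to 200 bases before it, 1.35% and 2.36% of the 297 genes held one, against 0.320% and 0.430% of all genes. With the upstream part of the window alone, the share was 12.1% of the 297 genes and 3.57% of all genes. The shorter motif AAACCCT was found in 24.2% and 9.35%.

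**Figure D1:**
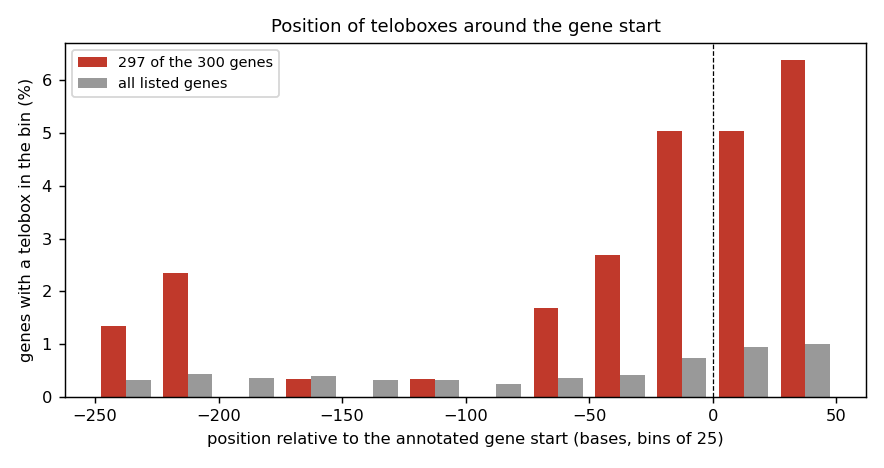
Percent of genes with a telobox (AAACCCTA, either strand) in each bin of 25 bases around the annotated gene start (dashed line), for the 297 placed genes of the 300 (red) and all 20020 placed genes (grey). The red bars reach 5.05% to 6.40% in the bins from 25 bases before to 50 bases after the start, where the grey bars lie between 0.739% and 1.01%; smaller red bars of 1.35% and 2.36% stand at the upstream end.

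Ribosomal protein genes held part of these teloboxes but not all. Among the 44 ribosomal protein genes of the 300, 21 (47.7%) had one, against 95 of 277 ribosomal protein genes outside the 300 (34.3%). Among the other 253 genes of the 300, 41 (16.2%) had one. AT4G12600 (L7Ae ribosomal protein family) is counted among these 41, so the 253 are not free of ribosomal protein family genes. Gene sets with related patterns had smaller shares: 4.99% of 1282 genes lower in all 3 mutant groups, 5.63% of 994 genes higher in all 3, 7.99% of 563 genes lower in both trb45 lines but within 0.3 of WT in trb123, and 8.27% of 3288 genes higher in trb123 but within 0.3 of WT in both lines. The lowest share, 5 of 289 (1.73%), was in the reverse pattern, higher in both lines and lower in trb123. No test was made of these shares, and a motif match is not a binding site. Site II elements were in 26.3% of the 297 genes and 25.2% of all genes. They were in 63.6% of the ribosomal protein genes of the 300 and in 67.1% of the 277 ribosomal protein genes outside the 300. Of the other motifs searched on both strands, the G-box CACGTG was in 11.1% of the 297 genes and 8.89% of all genes, the W-box (TTGACC or TTGACT) in 28.3% and 32.6%, and the evening element AAAATATCT in 2.36% and 2.96%.

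The mutated genes were at low levels in the groups labelled for them. TRB5 had 2.85 to 3.51 FPKM in line 1 and 2.96 to 3.30 FPKM in line 2, against 11 to 12.5 FPKM in WT, and TRB4 had 2.96 to 5.34 and 4.45 to 6.10 FPKM, against 8.16 to 11 FPKM. TRB1, TRB2 and TRB3 had 0.65 to 3.12 FPKM in trb123, against 6.34 to 13.3 FPKM in WT. The 5 TRB genes are not among the 300. The labels name no batch, but the libraries split in a way the groups do not explain: on 227 genes chosen for differing inside line 1, replicate 3 of line 1 lay with the line 2 and trb123 libraries, and replicates 1 and 2 lay with WT. Only 1 of the 227 is among the 300, but these genes mostly place line 2 and trb123 together, away from WT. The choice needs line 2 and trb123 on opposite sides of WT, so nothing is read from this count. The inferred depths were 22590000 to 24352000 fragments per library.

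Over all genes, the quartiles of the difference from WT were -0.31 and 0.44 in trb123. They were -0.23 and 0.14 in line 1 and -0.22 and 0.22 in line 2. Differences in trb123 were thus wider before any choice, and nothing is read from their larger size in the 300 genes. The median difference of the 300 from WT was -0.51 in line 1, -0.49 in line 2 and 0.66 in trb123. For all genes it was -0.05, 0.01 and 0.06, all on the log2(FPKM + 1) scale. The summed level of the 300 was 9435, 7683 and 7422 FPKM in the line 1 libraries, 7895, 6618 and 8641 FPKM in line 2 and 19993, 18496 and 19843 FPKM in trb123, against 11687, 11810 and 12138 FPKM in WT. The 3 kinds of sample did not overlap in this sum, but the choice set trb45 means below and trb123 means above WT in every gene. Nothing is read from this separation. The trb45 replicates varied more than WT replicates, and CWLP alone had 2237, 1239 and 944 FPKM in the line 1 libraries. The sum was 1.03% to 1.48% of all FPKM in the trb45 libraries and 2.90% to 3.11% in trb123, against 1.85% to 1.93% in WT.

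**Figure D2:**
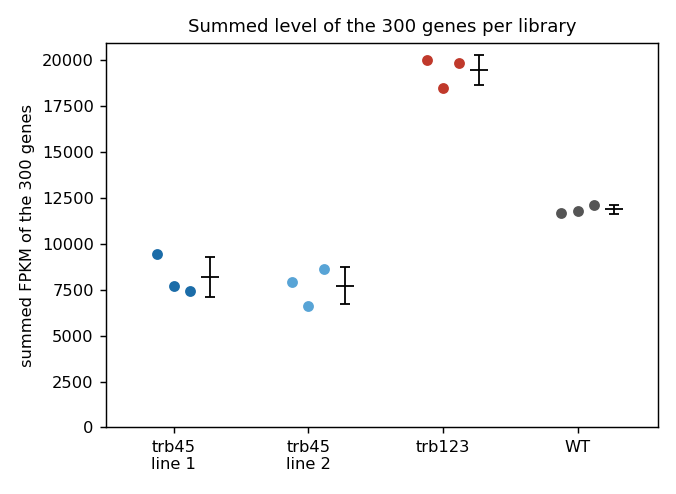
Summed FPKM of the 300 genes in each library (points), with mean and SD of the 3 libraries beside them, for trb45 line 1, trb45 line 2, trb123 and WT. The trb45 libraries lie at 6618 to 9435, the trb123 libraries at 18496 to 19993 and the WT libraries at 11687 to 12138.

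Gene by gene, all 3 libraries lay below all 3 WT libraries for 253 of the 300 in line 1 and for 251 in line 2, where 20.1% and 23.7% of all genes did so. In trb123 all 3 libraries lay above WT for 287, where 38.4% of all genes did. All of these held for 218 of the 300 and for 2.25% of all genes. The choice used these contrasts, so nothing is read from those counts. Among all 20114 genes, 17.4%, 19.3% and 33.3% passed the limit of 0.3 in line 1, line 2 and trb123, in the direction of the choice. The comparisons with WT share the WT libraries.

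Differences spanned a wide range. The lowest in line 1 was -2.71 (AT1G53542) and the lowest in line 2 was -2.90 (RACK1C_AT), and the highest in trb123 was 3.18 (AT5G01870). Just inside the limit of 0.3, by the smallest of the 3 absolute differences, were the snoRNA gene AT3G21805 (0.3004), MKK5, a MAP kinase kinase (0.3008), and OFP1, an ovate family protein (0.3011). Just outside were AT5G52810 (0.29999), the spliceosomal RNA gene U12 (0.2990) and AT1G25260 (0.2988). In WT the median level of the 300 was 9.32 FPKM, against 6.65 FPKM for all genes, and 55 of the 300 (18.3%) had at least 50 FPKM in WT, against 8.86% of all genes.

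**Figure D3:**
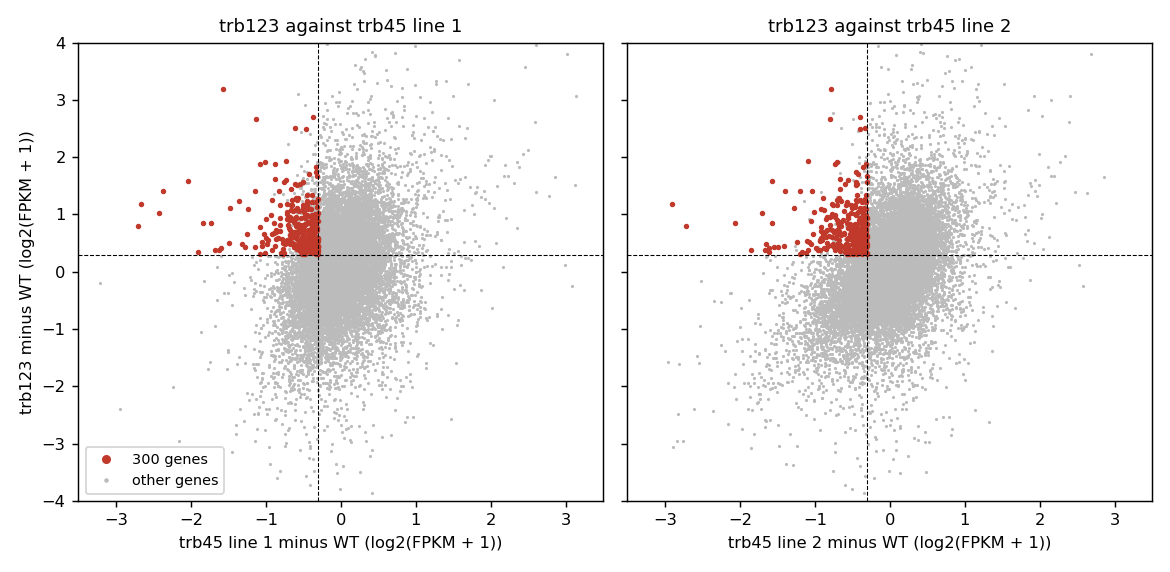
Difference from WT in trb123 (vertical) against the difference from WT in trb45 line 1 (left) and line 2 (right), in log2(FPKM + 1), for the 300 genes (red) and all other genes (grey), with dashed lines at the limits of -0.3 and 0.3 that chose them. The red points end at -2.71 in line 1, -2.90 in line 2 and 3.18 in trb123; 32 and 34 other genes lie outside the axes.

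Ribosomal proteins, the protein subunits of the ribosome, were the annotated group with the most members: 44 of the 321 listed (13.7%), and 32 of 177 with a cytosolic annotation (18.1%), against 1.49% of all genes. This and the other annotation groups were made after the members were known and were not tested, and some of the genes named from them were picked after their values were seen. The median differences of the 44 were -0.60 in line 1, -0.58 in line 2 and 0.73 in trb123. All 321 listed ribosomal protein genes had medians of -0.12, -0.06 and 0.74, and 71 of them (22.1%) were lower by at least 0.3 in both trb45 lines, against 10.7% of all genes, while 232 (72.3%) were higher by that much in trb123, against 33.3% of all genes. These genes belong to families of near-identical copies, and how the authors' counting split shared reads is not given, so single copies are uncertain.

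Within the group, RPS18C, which encodes a small-subunit protein, had 58.7, 72.4 and 77.9 FPKM in trb45 line 1, 78.8, 60.3 and 96 FPKM in trb45 line 2 and 260.1, 266 and 272 FPKM in trb123, against 139, 136 and 143 FPKM in WT. AT3G11510, of the S11 family, had 47.1, 44.1 and 49.8 FPKM in trb45 line 1, 54.5, 43.5 and 61.5 FPKM in trb45 line 2 and 178, 168 and 173 FPKM in trb123, against 97.2, 101 and 103 FPKM in WT. In both genes the trb45 libraries lay below WT without overlap, and the trb123 libraries lay above it. AT3G09200, of the L10 family and the most abundant of the 44 in WT, had 233, 170.4 and 191 FPKM in trb45 line 1, 235, 165 and 279 FPKM in trb45 line 2 and 631, 581 and 583 FPKM in trb123, against 349, 362 and 371 FPKM in WT. AT3G09200 overlaps PTAC13 on the same strand. AT1G23410, a fusion of ubiquitin with ribosomal protein S27a, had 2.11, 1.87 and 2.39 FPKM in trb45 line 1, 2.37, 0.98 and 1.82 FPKM in trb45 line 2 and 19.4, 17.9 and 20.3 FPKM in trb123, against 10.1, 9.35 and 11.1 FPKM in WT. AT1G23410 stood out within the group for its trb45 values, with differences of -1.84 in line 1, -2.07 in line 2 and 0.85 in trb123. RPS15A, which neighbours the member PAI1, a tryptophan synthesis enzyme, averaged 46.4 ± 10.7 FPKM in line 1, 43.3 ± 11.2 FPKM in line 2 and 94.9 ± 3.58 FPKM in trb123, against 60.5 ± 1.42 FPKM in WT (SD, n = 3 each).

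RACK1C_AT encodes a scaffold protein that sits on the small ribosomal subunit. It had 2.14, 1.68 and 2.29 FPKM in trb45 line 1, 1.98, 0.68 and 2.41 FPKM in trb45 line 2 and 44.6, 40.5 and 42.9 FPKM in trb123, against 18, 17.4 and 19.4 FPKM in WT. Every trb45 library held under 2.5 FPKM, every WT library at least 17.4 FPKM and every trb123 library at least 40.5 FPKM, with differences of -2.67 in line 1, -2.90 in line 2 and 1.18 in trb123. Its neighbour EMB1270, a pentatricopeptide repeat protein, averaged 3.68 ± 0.462 FPKM in line 1, 4.11 ± 0.431 FPKM in line 2 and 7.89 ± 0.699 FPKM in trb123, against 5.33 ± 0.469 FPKM in WT (SD, n = 3 each), and 5 of 228 listed genes of that family (2.19%) were among the 300.

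Genes of the nucleolus numbered 19 of 223 listed (8.52%), of which several are also counted as ribosomal proteins. FIB2 (fibrillarin 2), the rRNA 2′-O-methyltransferase, had 14.4, 10.2 and 9.24 FPKM in trb45 line 1, 12, 6.44 and 10.6 FPKM in trb45 line 2 and 39.3, 35.6 and 41.1 FPKM in trb123, against 30.9, 23.4 and 31.3 FPKM in WT. NUC-L1 (nucleolin like 1), which acts in rRNA gene transcription and processing, had 103, 75.3 and 57.1 FPKM in trb45 line 1, 56.9, 49.1 and 60 FPKM in trb45 line 2 and 157, 138 and 131 FPKM in trb123, against 109, 104 and 111 FPKM in WT. FIB2 and NUC-L1 were lower in every trb45 library than in any WT library, though line 1 replicate 1 of NUC-L1 came close to the lowest WT library. NUC-L2, its paralog, was low in WT and averaged 0.263 ± 0.106 FPKM in line 1, 0.243 ± 0.078 FPKM in line 2 and 2.76 ± 0.386 FPKM in trb123, against 0.56 ± 0.046 FPKM in WT (SD, n = 3 each). The NOP56-like AT3G12860 and the Gar1 subunit gene AT3G03920, whose products belong to snoRNA-protein complexes, had differences of -0.51 in line 1, -0.80 in line 2 and 0.82 in trb123, and of -0.59 in line 1, -0.89 in line 2 and 0.63 in trb123. FIB2, NUC-L1, NUC-L2 and AT3G12860 each had a telobox in the window and AT3G03920 did not. These genes were picked after their values were seen, and the share among all 19 was not counted. Of other nucleolar members, RPS18C had a telobox, and RACK1C_AT, AT3G11510 and OFP1 did not.

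Of 287 annotated snoRNA genes, only 18 were listed in every group. Of these 18, 7 (38.9%) were among the 300, and 14 (77.8%) were lower by at least 0.3 in both trb45 lines, against 10.7% of all genes. PolyA libraries do not capture the mature snoRNAs, so these values are polyadenylated RNA counted at short genes. AT3G47348, the most abundant of the 7, had 29, 43.4 and 33.6 FPKM in trb45 line 1, 32.4, 30.6 and 38 FPKM in trb45 line 2 and 119, 123 and 111 FPKM in trb123, against 45.5, 41.7 and 50.9 FPKM in WT. In line 1 its libraries overlapped WT, and in trb123 they were far above it. AT2G05765 had 0.40, 0.97 and 0.78 FPKM in trb45 line 1, 0.68, 0.94 and 0.52 FPKM in trb45 line 2 and 7.47, 6.06 and 6.01 FPKM in trb123, against 1.77, 1.98 and 1.1 FPKM in WT. AT4G39363 had differences of -1.50 in line 1, -0.69 in line 2 and 0.51 in trb123, but overlapped WT in line 2 and in trb123. Its neighbour AT4G39366 had -0.72 in line 1, -1.01 in line 2 and 1.04 in trb123. AT4G39366 ranged from 1.03 to 6.73 FPKM within line 1, and overlapped WT in each mutant group. None of the 7 overlaps another annotated gene.

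**Figure D4:**
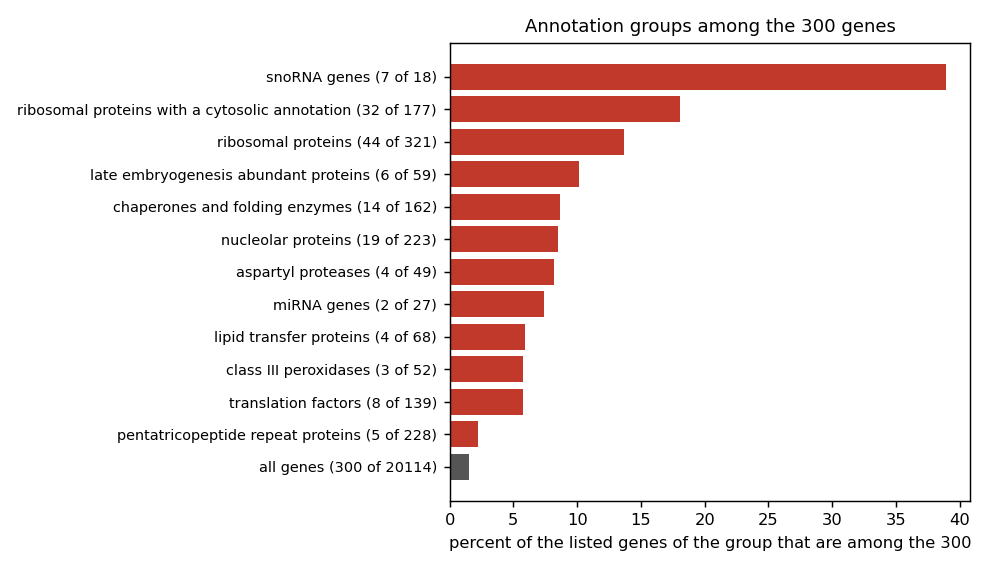
Percent of the listed genes of each annotation group that are among the 300 (red bars), beside the percent of all genes (grey); the counts stand beside the names. The bars run from 38.9% for snoRNA genes and 18.1% for cytosolic ribosomal proteins to 2.19% for pentatricopeptide repeat proteins, with 1.49% for all genes. Groups overlap and were not tested, and only 18 of 287 annotated snoRNA genes were listed.

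Translation factors numbered 8 of 139 listed (5.76%). AT5G60390, an elongation factor of the Tu family (eEF1A type) and the fourth most abundant of the 300 in WT, had 330.4, 242 and 269.6 FPKM in trb45 line 1, 265, 225 and 282 FPKM in trb45 line 2 and 750.5, 666 and 676 FPKM in trb123, against 417, 436 and 444 FPKM in WT. The trb45 libraries lay below all WT libraries and the trb123 libraries lay above them; near-identical copies of this factor, of which AT1G07920 is also a member, may share reads. ERF1-1, which ends translation at stop codons, averaged 14.3 ± 0.795 FPKM in line 1, 13.9 ± 0.715 FPKM in line 2 and 36.2 ± 3.22 FPKM in trb123, against 20.9 ± 1.32 FPKM in WT (SD, n = 3 each).

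Chaperones and folding enzymes numbered 14 of 162 (8.64%), and several work in the endoplasmic reticulum. BIP2, the Hsp70 of that compartment, had 52.3, 39.6 and 37.7 FPKM in trb45 line 1, 38.7, 27.6 and 32.5 FPKM in trb45 line 2 and 109.5, 94.8 and 109.6 FPKM in trb123, against 70.2, 72.9 and 71 FPKM in WT. The trb45 libraries lay below WT and the trb123 libraries above it, with differences of -0.72 in line 1, -1.11 in line 2 and 0.54 in trb123. Calreticulins CRT1a and CRT1b and the protein disulfide isomerases PDIL1-1, PDIL1-2 and PDIL2-2, which fold secreted proteins, were also members, with trb123 differences of 0.31 to 0.50. In the cytosol, HSC70-1 had 433, 346 and 468 FPKM in trb45 line 1, 478, 436 and 527 FPKM in trb45 line 2 and 846, 857 and 749 FPKM in trb123, against 583, 640.4 and 643 FPKM in WT, and HSP81-2, an Hsp90, averaged 24.8 ± 1.42 FPKM in line 1, 23.1 ± 1.96 FPKM in line 2 and 64.9 ± 2.63 FPKM in trb123, against 51.3 ± 2.68 FPKM in WT (SD, n = 3 each). HSP60, a mitochondrial chaperonin, had trb45 differences of -0.45 in line 1 and -0.38 in line 2 and a trb123 difference of 1.22.

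AT4G13495, a non-coding RNA gene on chromosome 4, overlaps MIR850, MIR863 and MIR5026 on the same strand. AT4G13495, MIR850 and MIR863 were among the 300, and MIR5026 was not. The mature miRNAs that the MIR850 and MIR863 precursors give (RefSeq, TAIR10.1, plus strand) are shown with bases 2 to 8 in capitals. Pairing with transcripts was not examined. miR850 is at chr4:7845756-7845777, miR863-5p at chr4:7846644-7846664 and miR863-3p at chr4:7846835-7846855, and the 3 sequences differ.
miR850: uAAGAUCCggacuacaacaaag
miR863-5p: uUAUGUCUuguugaucucaau
miR863-3p: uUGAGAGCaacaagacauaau

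AT4G13495 had 17.3, 16.3 and 14.9 FPKM in trb45 line 1, 34.6, 39.9 and 38.2 FPKM in trb45 line 2 and 243, 199 and 268 FPKM in trb123, against 86.4, 87.7 and 88.2 FPKM in WT. Its 3 line 1 libraries were lowest, line 2 came next, then WT, then trb123, with no overlap. MIR850 had 2.12, 5.76 and 3.18 FPKM in trb45 line 1, 7.44, 4.11 and 8.24 FPKM in trb45 line 2 and 49.3, 47.6 and 46.3 FPKM in trb123, against 16.4, 23.6 and 31.1 FPKM in WT. MIR863 had 0.14, 1.68 and 0.41 FPKM in trb45 line 1, 1.76, 1.09 and 0.96 FPKM in trb45 line 2 and 16.1, 21.6 and 19.4 FPKM in trb123, against 4.35, 6.43 and 6.43 FPKM in WT. MIR850 and MIR863 both showed the same separation of trb45, WT and trb123. Reads of the overlapping genes cannot be told apart, and polyA libraries do not measure mature miRNAs. AT4G13495 had a telobox in its window. MIR850 and MIR863 are the only members among 27 listed miRNA genes (7.41%), where 326 are annotated.

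Lipid transfer proteins, small secreted proteins that carry lipids, contributed 4 of 68 listed genes (5.88%). AT5G01870 had 6.26, 5.88 and 7.47 FPKM in trb45 line 1, 10.8, 9.11 and 17 FPKM in trb45 line 2 and 234, 162 and 217 FPKM in trb123, against 24.2, 18.7 and 21.4 FPKM in WT. Its trb123 libraries held at least 162 FPKM, its WT libraries at most 24.2 FPKM and its trb45 libraries at most 17.0 FPKM. LTP6 had 64.2, 49.2 and 61.1 FPKM in trb45 line 1, 74.2, 47.9 and 78.2 FPKM in trb45 line 2 and 358, 234 and 309 FPKM in trb123, against 96.8, 98.4 and 95.7 FPKM in WT, also without overlap between trb45, WT and trb123. Among class III peroxidases, which act in the cell wall, 3 of 52 (5.77%) were members. AT4G36430 had 2.69, 2.44 and 1.72 FPKM in trb45 line 1, 3.44, 3.24 and 2.68 FPKM in trb45 line 2 and 49.8, 38 and 45.4 FPKM in trb123, against 4.7, 7.69 and 6.35 FPKM in WT. Its trb45 libraries lay below all WT libraries and its trb123 libraries above them.

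Late embryogenesis abundant proteins, which protect cells in drying seeds, contributed 6 of 59 listed genes (10.2%). LEA7 had 2.02, 4.82 and 3.22 FPKM in trb45 line 1, 3.53, 5.41 and 2.59 FPKM in trb45 line 2 and 30.2, 17.4 and 26.4 FPKM in trb123, against 13.4, 9.55 and 16.8 FPKM in WT. Its trb45 libraries lay below all WT libraries, and those of trb123 above. AT3G15670 and AT3G17520 of the same family varied more: AT3G15670 had 2.08, 7.53 and 4.22 FPKM in trb45 line 1, 3.63, 6.47 and 1.18 FPKM in trb45 line 2 and 18.5, 15.6 and 20.3 FPKM in trb123, against 7.3, 7.64 and 5.65 FPKM in WT, and both trb45 lines overlapped WT. The 7 listed seed markers, none of them a member, summed to 11 to 365 FPKM in line 1, 2.99 to 102 FPKM in line 2 and 106 to 182 FPKM in trb123, against 4.20 to 36.6 FPKM in WT; LEC1 and FUS3 were not listed in every group. Their part in these values was not tested.

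Other genes with large differences carry various annotations. AT5G50915, a bHLH transcription factor, had 4.3, 5.07 and 4.12 FPKM in trb45 line 1, 3.74, 4.54 and 2.69 FPKM in trb45 line 2 and 30.2, 30.3 and 32.5 FPKM in trb123, against 9.88, 12.2 and 11.3 FPKM in WT. AT1G53542, uncharacterized, overlaps AT1G07903 on the same strand and had 0, 0.46 and 0.22 FPKM in trb45 line 1, 0, 0.22 and 0.44 FPKM in trb45 line 2 and 9.65, 14.1 and 15.4 FPKM in trb123, against 8.01, 6.43 and 6.38 FPKM in WT. AT4G13575, uncharacterized, overlaps MIR3932b on the same strand and had 0.18, 0.10 and 0.05 FPKM in trb45 line 1, 0.26, 0.22 and 0.31 FPKM in trb45 line 2 and 5.72, 5.57 and 5.75 FPKM in trb123, against 2.39, 1.55 and 2.37 FPKM in WT. In all 3 genes trb45, WT and trb123 stood apart; AT1G53542 and AT4G13575 were near 0 in the trb45 lines and several FPKM higher in trb123 than in WT. AT3G62460, an endonuclease or glycosyl hydrolase by its annotation, and its neighbour AT3G62455 had -0.82 in line 1, -1.04 in line 2 and 1.40 in trb123, and -0.40 in line 1, -0.46 in line 2 and 0.75 in trb123.

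The 5 most abundant members in WT had differences of various sizes. In trb123 they were modest for CWLP (0.42), HOG1 (0.36) and HSC70-1 (0.39), and larger for AT3G09200 (0.73) and AT5G60390 (0.69). CWLP, a proline-rich cell wall linker protein and the most abundant of the 300 in WT, had 2237, 1239 and 944 FPKM in trb45 line 1, 1078, 938 and 1254 FPKM in trb45 line 2 and 2307, 2127 and 2777 FPKM in trb123, against 1698, 1817 and 1827 FPKM in WT. Line 1 replicate 1 lay above all WT libraries while line 1 replicates 2 and 3 lay below them. HOG1, the S-adenosylhomocysteine hydrolase of the methyl cycle, had 436, 341 and 348 FPKM in trb45 line 1, 342, 284 and 371 FPKM in trb45 line 2 and 638, 631 and 601 FPKM in trb123, against 491, 464 and 504 FPKM in WT, with every trb45 library below WT and every trb123 library above.

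Lists of known seedling pathways held 7 of the 300 genes, 1.88% of the 372 genes on the 14 lists, against 1.49% of all genes. Of 20 listed clock genes only LHY, a Myb factor active at dawn, was a member; it had 10.2, 8.82 and 9.0 FPKM in trb45 line 1, 7.91, 8.62 and 7.21 FPKM in trb45 line 2 and 37.9, 28.8 and 34.2 FPKM in trb123, against 15.6, 14.1 and 16.6 FPKM in WT. The light and shade list of 30 genes held ELIP1 and ELIP2, thylakoid proteins of the light stress response; ELIP2 had 17.3, 18.9 and 29.8 FPKM in trb45 line 1, 24.2, 27.3 and 11.6 FPKM in trb45 line 2 and 87.4, 61.8 and 87.9 FPKM in trb123, against 27.6, 40.2 and 36 FPKM in WT. LHY libraries did not overlap between trb45, WT and trb123, whereas line 1 replicate 3 of ELIP2 overlapped WT. LHCB4.3, a light-harvesting antenna protein and the only member among 43 photosystem genes, had 5.7, 6.1 and 9.37 FPKM in trb45 line 1, 9.15, 8.5 and 8.08 FPKM in trb45 line 2 and 70.7, 58.2 and 74.5 FPKM in trb123, against 9.31, 15 and 9.66 FPKM in WT. The 12 nitrate genes held NRT2:1, a high-affinity nitrate transporter, at 0, 0.16 and 0.14 FPKM in trb45 line 1, 0.10, 0.22 and 0.02 FPKM in trb45 line 2 and 4.25, 2.72 and 3.3 FPKM in trb123, against 0.38, 0.57 and 0.20 FPKM in WT. PAD3, the camalexin biosynthesis enzyme, was the member among 13 salicylate and defence genes, with differences of -0.44 in line 1, -0.31 in line 2 and 0.50 in trb123. CMT3, a DNA methyltransferase for CHG sites and the member among 25 silencing genes, averaged 3.73 ± 1.03 FPKM in line 1, 4.99 ± 0.621 FPKM in line 2 and 9.13 ± 0.296 FPKM in trb123, against 7.13 ± 1.16 FPKM in WT (SD, n = 3 each). The lists for cold and dehydration (16 listed), auxin (54), cell wall loosening (46), glucosinolates (27), jasmonate (31), iron (19), phosphate (15) and Polycomb (21) held no member. The lists are not complete, and the members COR413IM1, RD20 and AGO7 are on none of them. A list without a member does not mean that the 300 hold no gene of that pathway.

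**Figure D5:**
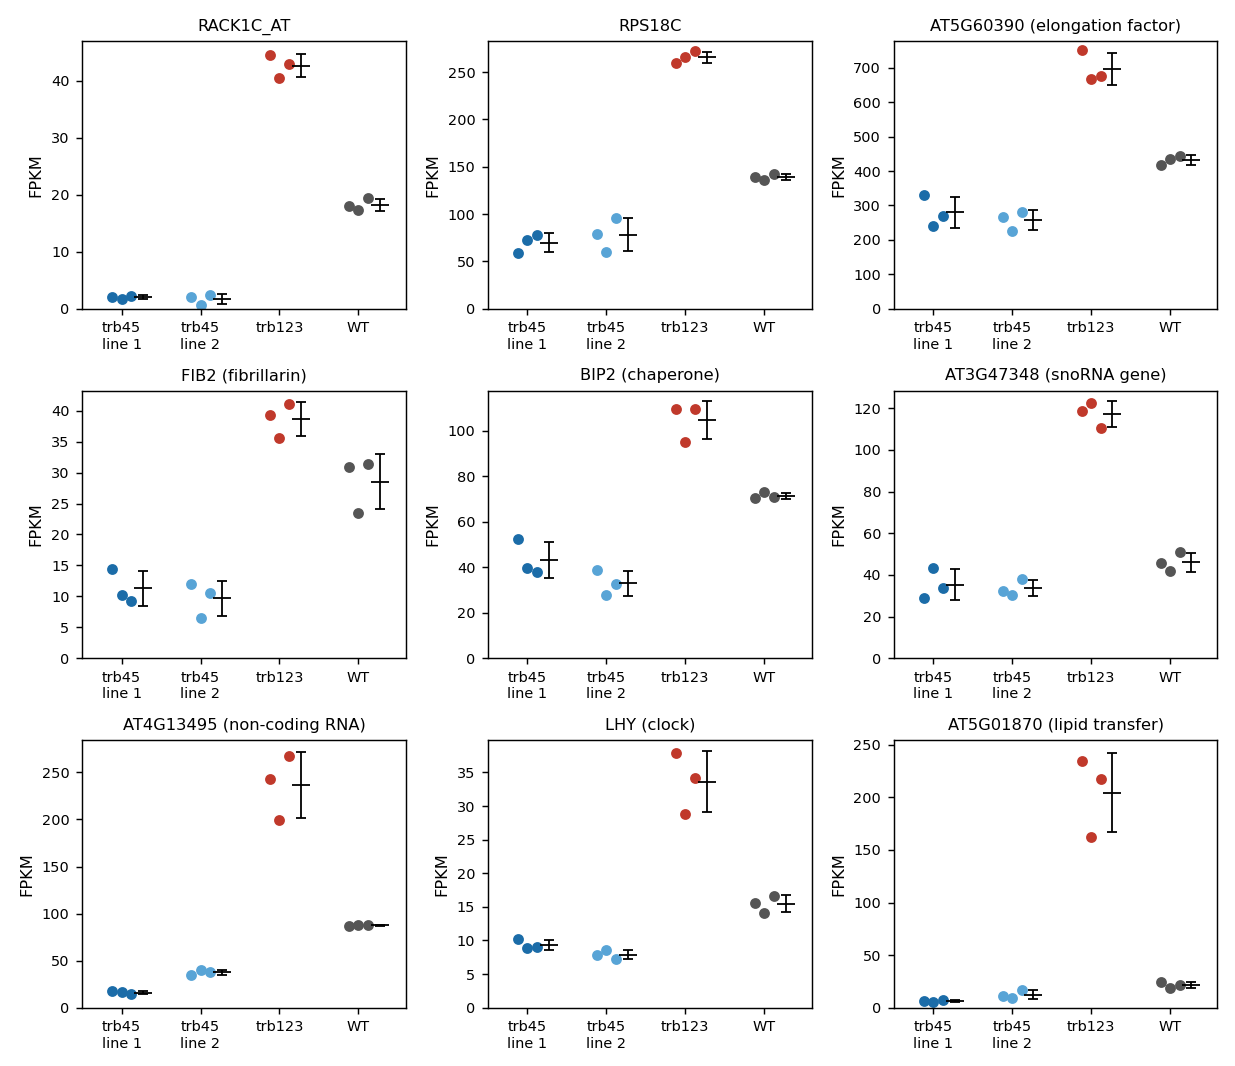
FPKM of 9 of the 300 genes in each library (points) with mean and SD of the 3 libraries beside them, for trb45 line 1, trb45 line 2, trb123 and WT; each axis starts at 0. In RACK1C_AT the trb45 libraries lie at 0.68 to 2.41 FPKM, and in AT5G01870 the trb123 libraries lie at 162 to 234 FPKM; in AT3G47348 line 1 overlaps WT.

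Marker genes of seedling cell types were set beside these values. AIL6, an AP2-type factor of the shoot apex, was the only member among 8 listed shoot meristem markers and averaged 3.83 ± 1.28 FPKM in line 1, 4.95 ± 0.797 FPKM in line 2 and 14.8 ± 0.259 FPKM in trb123, against 7.92 ± 2.04 FPKM in WT (SD, n = 3 each). The sum of those 8 was 24.1 to 30.1 FPKM in line 1, 23.0 to 33.0 FPKM in line 2 and 57.9 to 66.6 FPKM in trb123, against 30.0 to 35.6 FPKM in WT; WUS and CLV3 were not listed in every group. The 10 root tip and root hair markers summed to 55.3 to 74.4 FPKM in line 1, 42.9 to 54.9 FPKM in line 2 and 74.8 to 82.5 FPKM in trb123, against 78.0 to 85.1 FPKM in WT. The 2 listed flower markers summed to 2.63 to 6.93 FPKM in line 1, 3.64 to 4.18 FPKM in line 2 and 99.4 to 118 FPKM in trb123, against 2.93 to 4.37 FPKM in WT, and AP1, AP3, AG and LFY were not listed in every group. The 5 trichome markers summed to 34.4 to 45.6 FPKM in line 1, 47.4 to 49.6 FPKM in line 2 and 25.4 to 26.9 FPKM in trb123, against 50.7 to 55.7 FPKM in WT. The 8 stomatal markers summed to 42.1 to 48.6 FPKM in line 1, 40.3 to 56.1 FPKM in line 2 and 38.2 to 41.1 FPKM in trb123, against 60.2 to 65.7 FPKM in WT. Both of these sums were below WT without overlap in all 3 mutant groups. The 6 xylem markers summed to 31.9 to 54.7 FPKM in line 1, 44.5 to 54.8 FPKM in line 2 and 36.2 to 36.4 FPKM in trb123, against 49.8 to 59.4 FPKM in WT, so that trb123 alone lay below WT without overlap. The 5 phloem markers summed to 89.7 to 162 FPKM in line 1, 138 to 201 FPKM in line 2 and 138 to 179 FPKM in trb123, against 169 to 176 FPKM in WT, and line 1 alone lay below WT without overlap. The part of cell-type makeup in the values of the 300 genes was not tested.

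The split of the libraries moved with the groups in part, so the members are also given against libraries on the same side of it. The choice used all of these libraries and itself puts line 2 at least 0.6 below trb123 in every member, so the values are a description and no check on the split. Line 1 replicates 1 and 2 against WT gave a median difference of -0.50 over the 300, with 261 of them at -0.3 or lower. Line 2 against trb123 gave a median of -1.28, and line 1 replicate 3 against trb123 gave -1.33. Within line 1, replicate 3 minus replicates 1 and 2 had a median of -0.03 over the 300 and 0.02 over all genes. Neither line 2 nor trb123 could be set against a WT library on its own side, so there the split and the genotype cannot be told apart.

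The trb45 lines were compared with each other with limma across 18700 genes. The choice had required low means in both lines, which leaves out genes that were low in 1 line alone, so this difference is not free of the choice and nothing is read from the share of members called. Of the 296 members tested, 6 (2.03%) had an adjusted p under 0.05, where 4.63% of all tested genes did; 4 of the 6 were higher in line 1 (2.07% of all tested genes were) and 2 were lower (2.55% of all), and 49 members had an unadjusted p under 0.05. Over all tested genes 388 were higher and 477 lower in line 1, but 576 were higher and 274 lower after median-ratio scaling, which left the split of the 6 members at 4 and 2. Over the 300, line 1 minus line 2 had a median of -0.01 and 27 genes at -0.3 or lower, with 26 at 0.3 or higher. In simulated data this comparison recovered 29.9% of changes of 0.5 and 94.0% of changes of 1, so smaller differences between the lines could be missed.

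AT4G13495 fell in line 1 relative to line 2 by 1.17 on the log2 scale (SE 0.11, limma adjusted p = 0.000847), and it was lower in 3 of 3 line 1 libraries. It passed the threshold under each of 23 alternative settings. AT5G01870 was also lower in line 1 (-0.78, SE 0.19, limma adjusted p = 0.0451), in 3 of 3 libraries. KNAT3, a homeobox factor, had 70.3, 80.7 and 44.8 FPKM in trb45 line 1, 39.5, 44.1 and 35.9 FPKM in trb45 line 2 and 106, 123 and 118 FPKM in trb123, against 95.3, 86.9 and 89.3 FPKM in WT. It was higher in line 1 (0.66, SE 0.17, limma adjusted p = 0.0465), as were AT1G23205, an invertase or pectin methylesterase inhibitor (0.60, SE 0.14, limma adjusted p = 0.0408), and AT5G40960 (0.53, SE 0.14, limma adjusted p = 0.0469), each in 3 of 3 libraries. The sixth gene, AT2G04170, a TRAF-like protein outside the naming rule, differed by 0.36. With a term for the split of the libraries in the fit, AT4G13495 kept its call (-1.28, limma adjusted p = 0.0199) and the other 5 lost theirs. KNAT3 then differed by 0.17 (limma adjusted p = 0.840), AT1G23205 by 0.38 (limma adjusted p = 0.629), AT5G40960 by 0.45 (limma adjusted p = 0.629) and AT5G01870 by -0.61 (limma adjusted p = 0.630).

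The count of 6 rested on single libraries. It was 32 without line 1 replicate 3 and 10 without line 2 replicate 2. It was 1 without line 1 replicate 1, line 1 replicate 2, line 2 replicate 1, line 2 replicate 3, trb123 replicate 1, trb123 replicate 3, or any 1 of WT replicates 1, 2 and 3. Over all genes the count ran from 4 to 5180 in the same settings, the highest again without line 1 replicate 3.

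The 300 genes lie on all 5 nuclear chromosomes in like shares, from 1.38% of listed genes on chromosome 2 to 1.57% on chromosome 4, and 3 have organelle IDs not annotated in the reference. Protein-coding members had a median exon length of 1547 bases and 4 exons, against 1789 bases and 5 exons for all genes. In 6 places members were direct neighbours, 13 genes in all. Another annotated gene overlaps 89 of the 300, and for 24 of them it lies on the same strand.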

How the data were processed

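RNA levels were measured in 12 seedling libraries, 3 per group, grouped by their labels. The deposited values are FPKM; per the submitters' processing notes STAR 2.7.1, TAIR10 and DESeq2 were used, with no role given for each, and the counting program and gene annotation are not given in the sources used here. Line 1 values were deposited with a decimal comma, read here as a point. The 4 tables were joined on 20114 gene IDs listed in all. Depth (22590000 to 24352000 fragments) was inferred from steps of low FPKM values; it is an estimate, so no count test was run and counts of fragments are unknown.

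Differences are of log2(FPKM + 1). The 18700 genes with at least 1 FPKM in at least 3 libraries, 296 of the 300 among them, were fitted with limma 3.58.1 in R 4.3.3 (4 group means, all 12 libraries, eBayes with trend), and p-values carry Benjamini-Hochberg adjustment over all 18700. The code was tested on simulated data. Tables and plots used Python 3.11.15, pandas 2.3.3 and matplotlib 3.10.9.

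The members and all lists were chosen with earlier results of these data known. Genes named by rule were the 15 with the largest smallest-of-3 difference at 5 FPKM or more in a group, the 5 most abundant in WT, the 3 most extreme calls in each direction between lines, members of the lists, the 3 nearest to the limit on each side, neighbouring members and miRNA genes. Other members named as examples of annotation groups or for their printed sequence were chosen after their values were seen. Names, neighbours, coordinates and sequence came from RefSeq TAIR10.1, to which 20020 IDs and 297 members matched; the upstream sequence of 1 of the 5 genes chosen for it is not reported here. Alternatives covered pseudocount, limit, scaling, filters, model settings, each library left out, the replicate block and the split. Membership effects on the ribosomal protein count and telobox share were added after seeing the data.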

Additional observations from a re-analysis of the deposited data

Results flagged for a closer look

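The comparison of trb45 line 1 with trb45 line 2 gave 6 of the 296 tested members an adjusted p under 0.05 (limma). These genes were picked out because the 2 lines, set against the same WT libraries, differed in the test of the difference itself. Line 1 minus line 2 was -1.17 for AT4G13495 and -0.78 for AT5G01870, and it was 0.36 for AT2G04170, 0.53 for AT5G40960, 0.60 for AT1G23205 and 0.66 for AT5G25220 (KNAT3). In each gene the 3 line 1 libraries did not overlap the 3 line 2 libraries. AT2G04170 had 2.1, 2.27 and 2.49 FPKM in trb45 line 1, 1.56, 1.44 and 1.7 FPKM in trb45 line 2 and 6.01, 6.45 and 5.72 FPKM in trb123, against 3.4, 3.69 and 3.82 FPKM in WT. With a term for the split of the libraries, AT4G13495 kept its call and the other 5 genes lost theirs, and the difference was 0.17 for KNAT3 and 0.38 for AT1G23205.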

How the results depend on the processing

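The 300 genes became 516 with a pseudocount of 0.1, 646 with a limit of 0.2, 77 with a limit of 0.5, 6 with a limit of 1, and 798 when line 1 replicates 1 and 2 were set against WT and line 2 against trb123 (at least 0.6 lower), of which 261 were among the 300. Leaving out a library gave 248 to 341 members, and 145 of the 300 were found in all 12 such sets. Median-ratio scaling gave 242 members and quantile normalization 250, of which 241 and 249 were among the 300. The median of all genes in trb123 minus WT was 0.06 as deposited and 0.00 after median-ratio scaling.

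Ribosomal protein genes among the members numbered 44, and 15, 0 and 76 with a limit of 0.5, a limit of 1 and within the split; they numbered 28 among the 145, and 35 to 51 with a library left out. The telobox share was 20.9%; it was 12.1% upstream only, 14.7% and 17.2% with a pseudocount of 0.1 and 0.5, 15.3% within the split, 16.6%, 30.3% and 33.3% at limits of 0.2, 0.5 and 1 (the last over 6 genes), and 19.9% to 22.8% with a library left out.

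Between the lines, 6 members and 865 genes were called. Only the libraries of both lines gave 1 and 2, an adjusted p under 0.01 gave 1 and 4, the term for the split gave 1 and 5, and libraries left out gave 1 to 32 and 4 to 5180. With the replicate block the counts were 7 members and 1377 genes; same-numbered libraries of the lines deviated together with correlations of 0.11, 0.21 and 0.00, and line 1 replicate 1 correlated best with line 2 replicate 3 (0.19), so the numbers do not pair the libraries. Median-ratio scaling gave 850 gene calls, 576 higher and 274 lower in line 1, against 388 and 477 as deposited. Differences of uncalled genes changed sign for AT4G09800 (-0.15; 0.0164 with the split term, -0.33 to 0.00507 with a library left out), AT1G52690 (-0.40 to 0.0745), AT1G53542 (-0.129 to 0.145) and AT3G18130 (-0.0755 to 0.44). The cause of these changes was not tested. Of the named called genes, AT1G23205, AT5G01870, KNAT3 and AT5G40960 missed the threshold under 12 to 14 of their settings.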
